A study of Mus musculus with 6 samples.

Results

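Latent TGF-beta binding and TGF-beta signalling was followed through 10 genes in 2 stably transfected clones of RAW264.7, an established mouse macrophage line. The genes are the latent TGF-beta binding proteins Ltbp1, Ltbp2 and Ltbp3, the ligand Tgfb1, the receptors Tgfbr1 and Tgfbr2, the signalling proteins Smad2, Smad3 and Smad7, and the target gene Id3. All 10 were found among the 16387 named genes of the array table, with 1 probe set each. The group was selected on the clone difference of Ltbp2, which read higher in the Ms4a8a clone, and filled with pathway genes, so the clone difference of the 10 genes is given as a description that supports nothing, with no p-value of its own.

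The Ms4a8a clone, number 8 in the labels, carried an expression vector with a recombinant Ms4a8a cDNA, a gene of the membrane-spanning 4A family. The vector clone, number 3 in the labels, carried the empty vector. Both had been through lipofection and blasticidin selection and were kept for 48 h in the same serum-containing medium, and no TGF-beta or inhibitor of it is named in the labels. With 1 clone per arm, the transgene and the clone cannot be told apart. Each clone was measured on 3 arrays, numbered 1 to 3 in the titles. The source names give numbers 1 and 2 the other way round in both clones, so the pairs are the same by either, and the titles' numbers are used. Nothing in the labels says that the arrays came from separate cultures, so p-values measure the spread between arrays, which may be technical.

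TGF-beta is secreted as a latent complex. The protease furin cuts the precursor, the propeptide stays wrapped around the cytokine, and the complex is tethered either to matrix through a latent TGF-beta binding protein or to the surface of macrophages through Nrros. Integrins and proteases release the cytokine, which binds the type II receptor Tgfbr2 and recruits the type I receptor Tgfbr1. This kinase phosphorylates Smad2 and Smad3, which enter the nucleus with Smad4, and Smad7 is induced as an inhibitor of the pathway.

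Ms4a8a itself read 7.40, 7.90 and 8.15 on the log2 scale in the Ms4a8a clone, against 3.07, 3.32 and 3.22 in the vector clone, in the direction of the labels. Endogenous and transfected transcripts were not distinguished by its probe set. The labelled cell type was set against its markers. All 10 macrophage markers lay above the table median of 5.94 on every array, while all 9 fibroblast, 6 epithelial and 5 endothelial markers lay below it on every array. The median macrophage marker level ran from 11.3 to 12.3 in the Ms4a8a clone and from 11.2 to 12.2 in the vector clone, and the fibroblast median from 3.54 to 3.68 and from 3.43 to 3.72. Arrays of number 3 stood apart from numbers 1 and 2 in both clones. Expression was measured in bulk, so fewer expressing cells and less RNA per cell cannot be told apart.

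Among the latent TGF-beta binding proteins, Ltbp2 stood at a higher level in the Ms4a8a clone and the other pair lay near the bottom of the scale in both clones. Ltbp2 is a large secreted protein of elastic microfibrils that, unlike its relatives Ltbp1 and Ltbp3, does not bind the latent TGF-beta complex. It read 8.32, 8.41 and 6.66 in the Ms4a8a clone, against 5.09, 6.0 and 5.07 in the vector clone. The groups did not overlap, and the lowest Ms4a8a array was number 3. The mean was 7.80 ± 0.98 in the Ms4a8a clone and 5.39 ± 0.53 in the vector clone (SD, n = 3 each), a difference of 2.41 log2 units or 5.31-fold (SE 0.54, or 0.28 with the replicate number as a block). The difference was 3.22 at number 1, 2.41 at number 2 and 1.59 at number 3. It was the 15th widest of the 16387 clone differences in either direction.

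The window around the annotated start of Ltbp2 is shown because this is the gene the group was built on. It is the RefSeq sequence of GRCm38.p6, chr12:84876442-84876741 on the minus strand, running from 250 bases before the start to 50 after it. RefSeq windows were found for 8 of the 10 genes. Capitals mark AGAC or its reverse complement GTCT, the core that Smad3 and Smad4 recognise.
Ltbp2: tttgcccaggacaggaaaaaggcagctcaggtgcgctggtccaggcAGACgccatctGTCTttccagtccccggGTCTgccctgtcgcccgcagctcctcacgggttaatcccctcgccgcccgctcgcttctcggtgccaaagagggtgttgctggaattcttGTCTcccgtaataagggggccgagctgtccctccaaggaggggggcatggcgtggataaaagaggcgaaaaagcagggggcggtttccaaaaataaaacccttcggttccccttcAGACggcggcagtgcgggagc
The window held 5 AGAC matches, counting both strands, beginning at positions 47, 58, 75, 165 and 280. At least 5 were found in 8.79% of the 32851 windows of this length in the mouse table, whose median was 2. A match is a description of the letters and not a measured binding site.

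Ltbp1 and Ltbp3 both tether latent TGF-beta to matrix. Ltbp1 read 2.84, 3.19 and 3.03 in the Ms4a8a clone, against 2.86, 3.05 and 2.91 in the vector clone, a difference of 0.08 (SE 0.12). Ltbp3 read 3.41, 3.37 and 3.55 in the Ms4a8a clone, against 3.44, 3.42 and 3.55 in the vector clone, a difference of -0.03 (SE 0.09). The clones overlapped for both genes. The lowest value in the table was 2.24, and no detection call was used, so these low values were not read as absence of the transcripts.

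**Figure D1:**
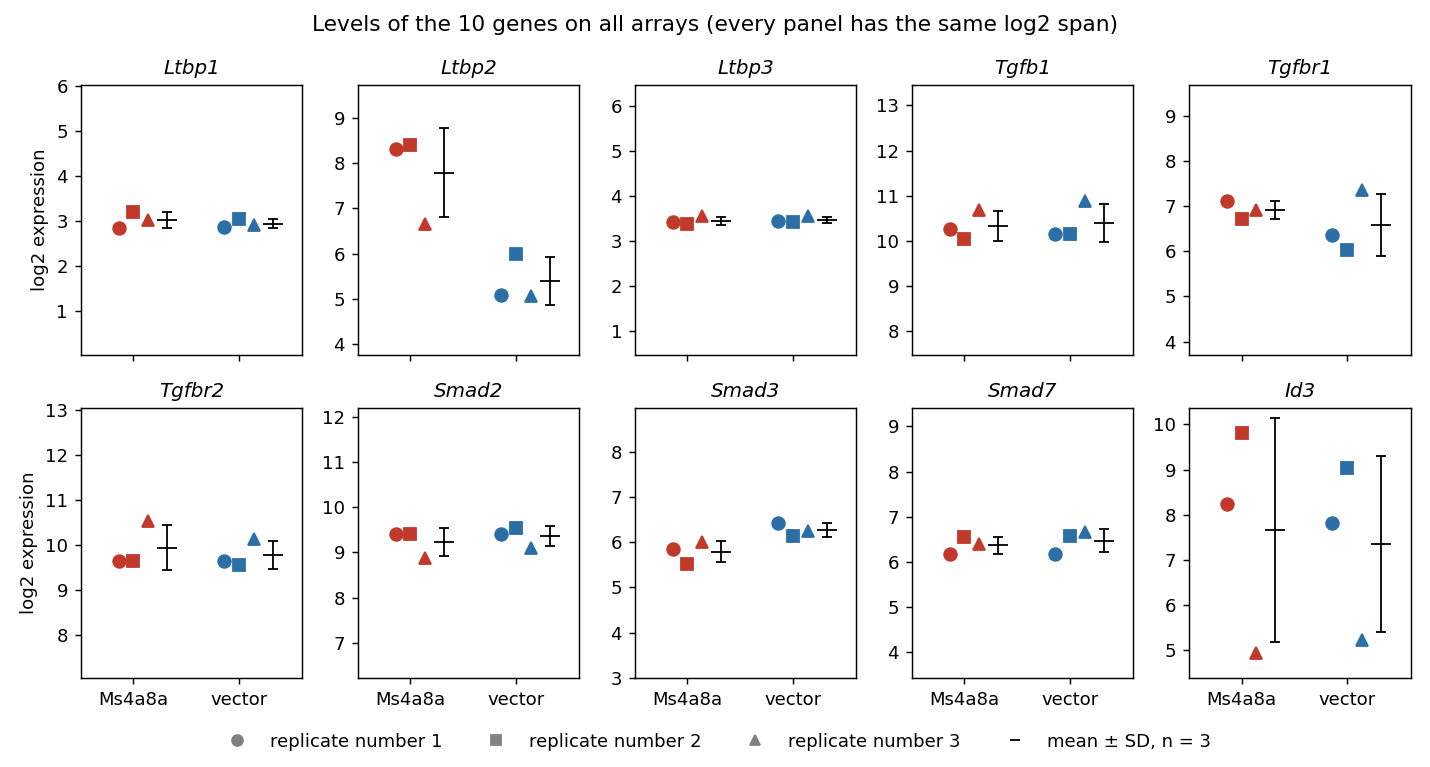
Log2 expression of the 10 genes in the Ms4a8a clone (red, left) and the vector clone (blue, right), with 1 point per array, the marker shape giving the replicate number, and the mean ± SD of 3 arrays beside the points. Ltbp2 is separated between the clones, at 6.66 to 8.41 against 5.07 to 6.0, whereas Id3 is low on both arrays of number 3, at 4.94 in the Ms4a8a clone and 5.22 in the vector clone.

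The ligand and the receptors overlapped between the clones. Tgfb1 read 10.26, 10.03 and 10.68 in the Ms4a8a clone, against 10.14, 10.15 and 10.88 in the vector clone, a difference of -0.07 (SE 0.27). The highest array of each clone was number 3. Tgfbr2, the receptor that first binds the ligand, read 9.65, 9.65 and 10.52 in the Ms4a8a clone, against 9.65, 9.56 and 10.13 in the vector clone, a difference of 0.16 (SE 0.29).

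Tgfbr1, the kinase that phosphorylates the Smads, went in different directions at different numbers. It read 7.11, 6.71 and 6.92 in the Ms4a8a clone, against 6.37, 6.02 and 7.36 in the vector clone. The difference was 0.74 at number 1, 0.70 at number 2 and -0.44 at number 3, with a mean of 0.33 (SE 0.35). The vector array of number 3 was the highest of the 6. With single arrays left out the mean difference ran from 0.05, without the vector array of number 2, to 0.72, without that of number 3.

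Of the Smads, Smad3 was lower on all 3 Ms4a8a arrays than on any vector array. It read 5.86, 5.53 and 6.0 in the Ms4a8a clone, against 6.44, 6.14 and 6.25 in the vector clone, a difference of -0.48 (SE 0.15, or 0.10 with the block), which was -0.58, -0.62 and -0.25 at numbers 1, 2 and 3. Smad2, the other Smad that the receptor activates, read 9.40, 9.42 and 8.88 in the Ms4a8a clone, against 9.42, 9.54 and 9.11 in the vector clone, a difference of -0.13 (SE 0.20). Smad7 read 6.17, 6.54 and 6.39 in the Ms4a8a clone, against 6.18, 6.56 and 6.66 in the vector clone, a difference of -0.10 (SE 0.17). The clones overlapped for Smad2 and Smad7.

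Id3 encodes a helix-loop-helix protein that lacks a DNA-binding region and blocks E proteins, and its gene responds to BMP and TGF-beta signals. It read 8.24, 9.80 and 4.94 in the Ms4a8a clone, against 7.81, 9.04 and 5.22 in the vector clone. The clones overlapped over nearly their whole range, and the low array of each clone was number 3. The clone difference was 0.43, 0.77 and -0.28 at numbers 1, 2 and 3, with a mean of 0.31 (SE 1.52, or 0.19 with the block).

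Over the 10 genes, 5 differences were positive and 5 negative, with a median of 0.03 against -0.01 over all genes. The clones did not overlap for 2 of the 10, Ltbp2 above and Smad3 below, against a background of 7.88% of genes (3.89% with the Ms4a8a clone above and 3.99% below). Limma, adjusted over all genes at a threshold of 0.05, called 0 of the 10 without a term for the replicate number, where 0.0427% of genes were called, and 1 with the number as a block, where 0.909% were. The gene called with the block was Ltbp2, for which the group was chosen. Over all genes the unadjusted p without the block was under 0.05 for 524. Nothing is read from these counts, since the choice of genes used the same contrast.

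**Figure D2:**
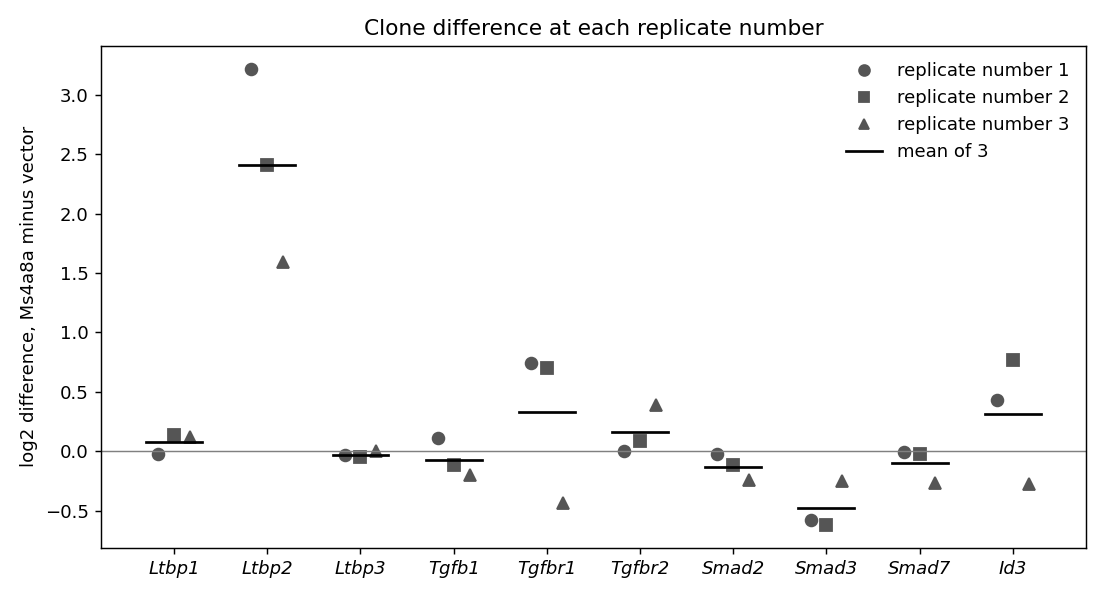
Log2 difference between the Ms4a8a and vector arrays of the same replicate number, for each of the 10 genes, with a line at the mean of the 3. The difference of Ltbp2 is positive at every number, from 1.59 to 3.22, that of Smad3 is negative at every number, and those of Tgfbr1 and Id3 are positive at numbers 1 and 2 and negative at number 3.

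The replicate number was not the contrast that the group was selected on, but the genes were chosen with earlier results of these data known. The number was tested with a moderated F-test in a limma model of clone plus number. Id3, Tgfb1, Tgfbr2 and Smad2 changed with the number, which is 4 of the 10 genes against 30.1% of all genes. Run only on genes whose mean level reached the median, the same test called 4617 genes, a larger share than 30.1%. The share of all genes is thus a low background for genes of higher level. Id3 had by far the widest spread of the 10, with mean levels over the clones of 8.03 at number 1, 9.42 at number 2 and 5.08 at number 3 (adjusted p = 0.000416). The span of 4.34 log2 units, or 20.3-fold, was the 12th widest of 16387 genes. Tgfb1 and Tgfbr2 were highest at number 3 in both clones, and Smad2 was lowest there. Tgfb1 averaged 10.20, 10.09 and 10.78 at numbers 1, 2 and 3 (adjusted p = 0.00912), Tgfbr2 9.65, 9.61 and 10.32 (0.00991), and Smad2 9.41, 9.48 and 8.99 (0.0211). Ltbp2 averaged 6.70, 7.20 and 5.87 and did not pass (0.0681), and Smad7 (0.0661), Smad3 (0.165), Ltbp1 (0.174), Tgfbr1 (0.204) and Ltbp3 (0.403) did not either.

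Number 2 also differed from number 1 for Id3. With both arrays of number 3 left out, in a comparison chosen after the data were seen, Id3 was 1.39 log2 units higher at number 2 and higher in both clones (adjusted p = 0.0417). It was the 1 gene of the 10 among 19 called, 0.116% of all genes. Tgfb1 (adjusted p = 0.751), Tgfbr2 (0.898) and Smad2 (0.830) did not pass there. Macrophage markers moved with the number too: 7 of 10 changed, against 30.1% of all genes, all 7 with the highest level at number 3 (background 14.4%). All 10 lay above the table median, and genes of higher level changed more often than 30.1%. The marker median was 11.51, 11.31 and 12.26 on Ms4a8a arrays 1, 2 and 3 and 11.35, 11.20 and 12.16 on vector arrays 1, 2 and 3. The part of this shift in the results for Id3, Tgfb1, Tgfbr2 and Smad2 was not tested.

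Id2, Pmepa1 and Smad6 shared the order of the numbers seen in Id3, while Id1 did not. Id2, a second inhibitor of E proteins, read 8.30, 9.80 and 5.70 in the Ms4a8a clone, against 7.86, 8.97 and 6.31 in the vector clone (number adjusted p = 0.00177). Pmepa1, a TGF-beta-induced membrane protein that restrains Smad signalling, read 6.69, 7.55 and 5.57 in the Ms4a8a clone, against 6.18, 7.07 and 5.32 in the vector clone (0.000463). Smad6, an inhibitory Smad that acts mainly on BMP signals, read 7.20, 7.67 and 6.60 in the Ms4a8a clone, against 7.33, 7.70 and 6.94 in the vector clone (0.00409). In each of these genes number 2 was the highest and number 3 the lowest in both clones. Ltbp2, Smad2, Itgav and Acvr1 had this order too. So did further genes of the lists, among them Usp15, Strap, Itgb1, Bmpr1a and Smurf2, which are named after their values were seen. The share of all genes with this order was not counted. Of all genes, 15.4% changed with the number and were lowest at number 3 in both clones. Id1, named after its values were seen, read 8.12, 8.91 and 9.27 in the Ms4a8a clone, against 8.14, 8.71 and 8.95 in the vector clone (0.00321), so its level was highest at number 3, where Id2 and Id3 were lowest.

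The start windows of Id3 and of Id2 and Smad6, which shared its order of the numbers, are shown as examples. They are RefSeq sequences of GRCm38.p6. The Id3 window is chr4:136143572-136143871 on the plus strand, that of Id2 is chr12:25096043-25096342 on the minus strand, and that of Smad6 is chr9:64022010-64022309 on the minus strand. Capitals mark AGAC or GTCT and GGCGCC, a GC-rich Smad core of BMP target genes.
Id3: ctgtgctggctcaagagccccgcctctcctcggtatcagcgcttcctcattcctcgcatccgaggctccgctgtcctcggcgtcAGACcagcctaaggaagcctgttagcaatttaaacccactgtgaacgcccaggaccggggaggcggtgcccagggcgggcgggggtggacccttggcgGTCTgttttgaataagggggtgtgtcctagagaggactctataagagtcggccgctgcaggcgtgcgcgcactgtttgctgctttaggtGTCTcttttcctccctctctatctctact
Id2: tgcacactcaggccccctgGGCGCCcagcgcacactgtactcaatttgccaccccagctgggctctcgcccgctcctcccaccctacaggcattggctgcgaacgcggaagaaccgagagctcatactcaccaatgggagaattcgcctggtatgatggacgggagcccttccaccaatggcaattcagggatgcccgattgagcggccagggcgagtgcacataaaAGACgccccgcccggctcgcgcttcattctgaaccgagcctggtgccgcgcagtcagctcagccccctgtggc
Smad6: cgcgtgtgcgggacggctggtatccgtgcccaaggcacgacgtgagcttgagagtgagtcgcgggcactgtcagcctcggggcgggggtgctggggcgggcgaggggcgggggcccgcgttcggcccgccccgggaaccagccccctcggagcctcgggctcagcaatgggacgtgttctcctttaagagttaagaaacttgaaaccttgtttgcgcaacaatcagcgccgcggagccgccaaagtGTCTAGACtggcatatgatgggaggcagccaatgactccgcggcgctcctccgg
Id3 held 3 AGAC matches, and at least 3 were found in 39.6% of all windows. Id2 held 1 AGAC match, a motif found in 88.0% of windows, and 1 GGCGCC, found in 11.9%. Id3 and Smad6 held no GGCGCC. The windows were 60.0% GC for Id3, 63.3% for Id2 and 66.3% for Smad6, against a median of 52.7%, and the shares were not matched for this. In Smad6 GTCT and AGAC stood side by side as the palindrome GTCTAGAC, beginning at position 247. That palindrome was in 70 of 32851 windows, or 0.213%. Both strands were searched, and the motifs and windows were chosen after the levels were known.

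**Figure D3:**
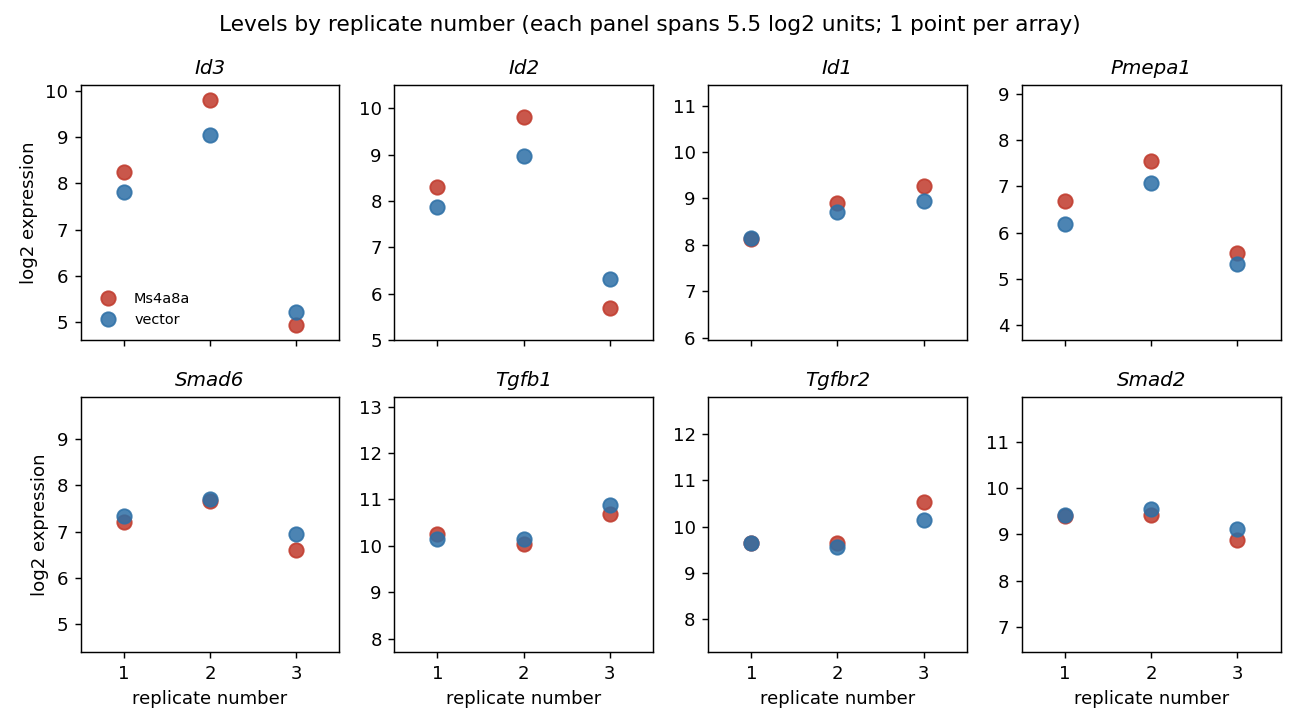
Log2 expression by replicate number in the Ms4a8a clone (red) and the vector clone (blue), with 1 point per array. Id3, Id2, Pmepa1, Smad6 and Smad2 are lowest at number 3 and highest at number 2 in both clones, and Id1, Tgfb1 and Tgfbr2 are highest at number 3.

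Beyond the 10 genes, 119 pathway genes in 9 lists were examined, of which 111 were measured. In the clone contrast 0 of the 111 passed in limma over all genes, both without the block (background 0.0427%) and with it (0.909%). Without the block the lowest adjusted p of the 111 was 0.535, for Plau, so the blocked values given below are the smaller ones. At an unadjusted p under 0.05 in limma without the block there were 2 of the 111, against 524 of all 16387 genes. Both were lower in the Ms4a8a clone. With the block and without both arrays of number 3, 6 passed (background 2.65%), and without number 2 it was 2 (0.635%). Of the 111 differences 50 were positive and 61 negative, with a median of -0.02 against -0.01 over all genes, of which 48.4% were positive.

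The genes that handle latent TGF-beta in the matrix and at the cell surface gave the widest single difference. Plau encodes urokinase, whose product plasmin can release TGF-beta. It read 6.41, 6.72 and 5.36 in the Ms4a8a clone, against 8.39, 8.45 and 9.41 in the vector clone, a difference of -2.59 (SE 0.44, adjusted p = 0.535, or 0.0699 with the block). The clones did not overlap. Igf2r, the mannose 6-phosphate receptor that also binds the latent complex, read 7.85, 7.30 and 8.45 in the Ms4a8a clone, against 6.47, 6.58 and 7.93 in the vector clone, a difference of 0.87 (blocked adjusted p = 0.0953). Furin differed by 0.38 (0.0959), at 0.40, 0.34 and 0.40 at the 3 numbers. The clones overlapped for Igf2r and Furin, and without the block the SE was 0.48 and 0.46. Of the 16 measured genes of this list 9 were positive, with a median of 0.01.

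Nrros, which tethers latent TGF-beta on macrophages and is named after its values were seen, read 10.45, 10.50 and 11.24 in the Ms4a8a clone, against 10.68, 10.50 and 11.76 in the vector clone, a difference of -0.25 (blocked adjusted p = 0.422). It changed with the replicate number (adjusted p = 0.00450), as did Furin (0.00065), Igf2r (0.0104) and Itgav (0.0292), an integrin subunit that activates TGF-beta and is named after its values were seen. Itgav failed to pass whichever of the 6 arrays was left out (adjusted p from 0.0511 to 0.154), and Igf2r did not pass without a clone term (0.211). Nrros, Furin and Igf2r were highest at number 3 in both clones and Itgav lowest. In the matrix list of 15 genes 6 differences were positive and the median was -0.01. Ltbp4, the remaining family member, differed by 0.00, Mfap2, a microfibril protein, by -0.04, and Efemp2, which assembles elastic fibres, by 0.29 (blocked adjusted p = 0.190).

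No ligand, antagonist or receptor of the lists passed between the clones, with or without the block. Of the 12 measured ligands 11 had mean levels below the table median, as did all 9 antagonists. The ligand above it was Gdf15, a stress-induced member of the superfamily, which read 5.76, 5.53 and 6.15 in the Ms4a8a clone, against 5.52, 5.80 and 7.36 in the vector clone, a difference of -0.42 (blocked adjusted p = 0.555). Its clones overlapped, and it did not pass for the replicate number (0.0600). Of the ligands 2 differences were positive and 10 negative, with a median of -0.07, and of the antagonists 4 were positive and 5 negative, with a median below 0.01 in size. Of 13 receptors 7 were positive, with a median of 0.05. The co-receptor Eng differed by 0.33 (blocked adjusted p = 0.174), the BMP receptor Acvr1 by 0.25 (0.302), and Acvrl1, a type I receptor best known from endothelium, by 0.22 (0.328). All 3 changed with the replicate number, as 30.1% of all genes did (adjusted p = 0.0292, 0.0495 and 0.00208), with Eng and Acvrl1 highest and Acvr1 lowest at number 3. With single arrays left out, Acvrl1 passed in 6 of 6, Eng in 2 (adjusted p from 0.0271 to 0.106) and Acvr1 in 1 (0.0331 to 0.183). Without a clone term neither Eng (0.232) nor Acvr1 (0.204) passed, and with array weights Acvr1 did not (0.0752).

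Inside the cell the differences between the clones were also small. Of the other 5 Smads 1 was positive and 4 negative. Smad4, the common partner of the activated Smads, differed by -0.04, Smad1, which carries BMP signals, by -0.03, and Smad6 by -0.17 (blocked adjusted p from 0.483 to 0.922). In this list 4 of 5 changed with the replicate number, against 30.1% of all genes, a share that was higher among genes of higher level. Smad4 and Smad6 passed without each of the 6 arrays in turn, whereas Smad1 (adjusted p = 0.0310) failed to pass whichever array was left out (0.0541 to 0.119) and with array weights (0.0605). Smad5 (0.0245), another BMP Smad, named after its values were seen, passed with 1 of the 6 left out and not with the other 5 (0.0332 to 0.0872). Smad4 averaged 10.02, 10.00 and 10.89 at numbers 1, 2 and 3 (adjusted p = 0.00154). Among 20 regulators 8 were positive, with a median of -0.02. Skil, a repressor of Smad complexes that TGF-beta induces, read 9.06, 9.35 and 9.10 in the Ms4a8a clone, against 8.41, 9.01 and 8.81 in the vector clone, a difference of 0.43 (blocked adjusted p = 0.141). Its clones did not overlap. Pmepa1 differed by 0.42 (0.111) and Map3k7, a kinase of the non-Smad branch, by -0.28 (0.258).

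Of 14 measured TGF-beta and BMP target genes 10 differences were positive, with a median of 0.07. Klf10, an early TGF-beta response gene, read 8.82, 8.77 and 9.77 in the Ms4a8a clone, against 8.22, 8.39 and 9.41 in the vector clone, a difference of 0.45 (blocked adjusted p = 0.0927). The cell cycle inhibitor Cdkn1a differed by -0.33 (0.165) and Id2 by 0.22 (0.784). Thus Klf10 and Pmepa1 read higher at all 3 numbers in the Ms4a8a clone and Cdkn1a lower, and none of these passed. The clones overlapped for each of them.

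Of 7 measured genes that depend on TGF-beta in microglia, 3 were positive. The chemokine receptor Cx3cr1 read 11.09, 10.11 and 11.35 in the Ms4a8a clone, against 10.44, 9.61 and 10.88 in the vector clone, a difference of 0.54 (adjusted p = 1.00, or 0.0510 with the block) that was 0.65, 0.50 and 0.46 at the 3 numbers. The purinergic receptor P2ry12, named after its values were seen, was the second gene with an unadjusted p under 0.05. It read 3.24, 3.13 and 3.13 in the Ms4a8a clone, against 4.80, 3.71 and 4.90 in the vector clone, a difference of -1.30 (adjusted p = 1.00, or 0.0781 with the block). P2ry12 had a mean level of 3.82, below the table median of 5.94, and its Ms4a8a values lay near the bottom of the scale. Cx3cr1 and P2ry12 each showed the same direction at every number, as did Siglech and Sall1 of the same list, both lower in the Ms4a8a clone. Siglech (-0.82, blocked adjusted p = 0.336) and Olfml3 (0.80, 0.396), also below the median, differed more widely than Cx3cr1.

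**Figure D4:**
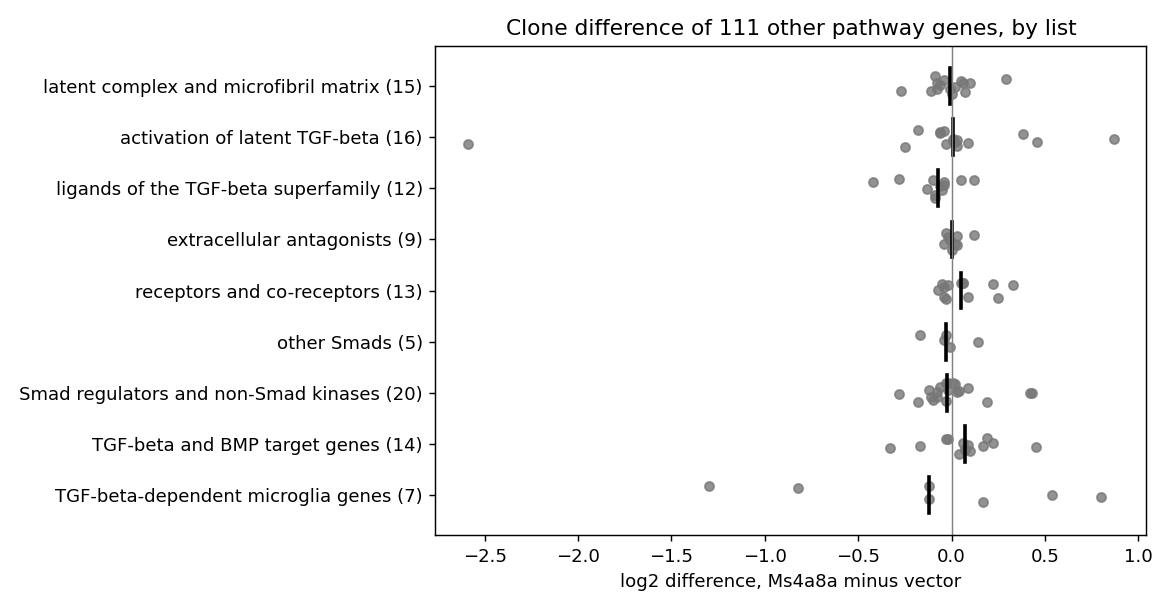
Log2 difference, Ms4a8a minus vector, of the 111 measured pathway genes other than the 10, by list, with 1 point per gene, a black line at each list's median and the number of measured genes in brackets. Medians lie between -0.12 and 0.07, and the point at -2.59 is Plau.

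The replicate number changed 27 of the 111 pathway genes against 30.1% of all genes, 17 with the highest level at number 3 in both clones (background 14.4%) and 10 with the lowest (15.4%). Of the 111, 67 had mean levels below the table median. The regulators had 7 of 20, the targets 5 of 14, and the antagonists, all with mean levels below that median, 0 of 9. Trim33, a ubiquitin ligase that acts on Smad4, averaged 7.39, 7.27 and 8.47 (adjusted p = 0.00323), and the immediate-early gene Junb 8.62, 8.56 and 10.53 (0.00262), both named after their values were seen.

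Among 2672 other genes whose values spanned at least 1 log2 unit, those with the pattern most like Ltbp2 over the 6 arrays were Sh3kbp1 (Pearson r = 0.986), Ffar4 (0.982), Rbfox1 (0.973), Pxdn (0.958) and Spink5 (0.954). The most opposed were St14 (-0.975), Ifi47 (-0.969) and Ifih1 (-0.967). These values describe 6 arrays that share 2 clones and 3 numbers. Ffar4, a receptor for long-chain fatty acids, read 7.27, 7.31 and 6.68 in the Ms4a8a clone, against 6.44, 6.68 and 6.26 in the vector clone. Pxdn, a peroxidase of basement membranes, read 5.85, 6.08 and 5.42 in the Ms4a8a clone, against 4.39, 4.44 and 3.90 in the vector clone. In Pxdn, Ffar4, Rbfox1 and Spink5, as in Ltbp2, every Ms4a8a array was above every vector array, in Ffar4 by less than the rounding shown. Number 3 was the lowest array of each clone in all of them except Spink5. Spink5 read 8.22, 8.33 and 6.58 in the Ms4a8a clone, against 4.34, 4.90 and 5.42 in the vector clone, where number 3 was the highest. These genes were picked for their correlation with Ltbp2, so nothing is read from the likeness.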

How the data were processed

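The values are the authors' deposited log2 expression values, 1 per probe set and array, for 6 Affymetrix arrays. Per the labels, biotin-labelled cRNA was made from total RNA by the standard Affymetrix procedure. For the summary method and its software the entry is not given in the sources used here. All 6 columns hold the same sorted values, so the table was already normalised between arrays, and no scaling, filter or offset was added.

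Probe sets are numbered by gene. Of 17370, 64 were control sets, 919 had no symbol and 16387 had 1, updated to RefSeq symbols of GRCm38.p6 where the number matched (16358). The number of arrays limits the precision.

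Genes were tested with limma 3.58.1 (R 4.3.3, statmod 1.5.0; lmFit, eBayes, two-sided, Benjamini-Hochberg adjustment over 16387 genes, threshold 0.05), Ms4a8a minus vector, without and with the replicate number as a block, and by a moderated F-test of the number. Same-numbered arrays deviated together (r = 0.709, 0.809 and 0.865), above the limit of 0.1 set for pairing. Ms4a8a array 2 also correlated 0.713 with vector array 1, and Ms4a8a array 1 0.617 with vector array 2. The limit therefore could not decide how numbers 1 and 2 pair, since both ways passed it. The fits were tested on simulated data. The simulated clone contrast held no replicate number effect, so it does not show how the fit without the block behaves with one. Alternatives were the block, filters on low levels, array weights and arrays left out.

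The 10 genes and the lists were chosen with earlier results of these data known. Pathway genes were named if called, or if among the 3 widest clone differences or the widest number spread of their list at or above the table median. For Ltbp2 the 5 most and 3 least correlated genes were named.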

Additional observations from a re-analysis of the deposited data

How the results depend on the processing

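The Ltbp2 difference of 2.41 kept its direction under every alternative run, between 2.10 and 2.98 with single arrays left out, 2.79 with array weights, and 2.00, 2.40 and 2.82 with the block and without both arrays of number 1, 2 or 3. Smad3 stayed between -0.58 and -0.34 without single arrays, whereas Id3 ran from -0.77 to 1.67, Tgfb1 from -0.25 to 0.18 and Tgfbr2 from -0.13 to 0.34.

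Genes called between the clones, 7 without the replicate block, were 149 with it, 101, 104 and 434 with it and without both arrays of number 1, 2 or 3, 47 with array weights, 1 for genes whose mean level reached the median, and 0 to 8 without single arrays. Of the 111 pathway genes 0 passed without the replicate block and 0 with it, and 0 without any single array. With the block and without number 3 there were 6, namely Plau, Igf2r, Pmepa1, Cx3cr1, Junb (0.50) and Olfml3 (1.37), of which Plau alone was lower. Without number 2 there were 2, Plau and P2ry12, and with array weights 1, Plau (0.287%).

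The replicate number called 4938 genes and 4 of the 10, 3608 to 4929 genes and 3 to 8 of the 10 without single arrays, and 19 and 1 without number 3. The 8 came without vector array 3, when Ltbp2, Tgfbr1, Smad3 and Smad7 also passed. Ltbp2 passed too without vector array 1 (adjusted p = 0.00512), without Ms4a8a array 1 (0.00668) and with array weights (0.0495), Tgfbr1 (0.00117) and Smad7 (0.0201) without Ms4a8a array 3, and Smad7 with array weights (0.0368) and among genes whose mean level reached the median (0.0421). Smad2 did not pass without vector array 2 (adjusted p = 0.0850), Ms4a8a array 2 (0.0861) or Ms4a8a array 3 (0.0754). Id3, Tgfb1 and Tgfbr2 passed without each array in turn. The cause of these shifts was not tested.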
